A study of Homo sapiens with 42 samples.

Results

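The data described here compare 1205Lu cells, a metastatic human melanoma cell line in long use, after 12 h with an Aurora kinase inhibitor and before any inhibitor. The inhibitor arrays are those titled for 12 h, 4 with AZD1152 at 0.5 µM and 4 with SNS-314 at 0.05 µM, and the control arrays are the 4 titled for 0 h. These 12 arrays are part of a series of 42 single-colour bead arrays, 1 per sample, which also holds samples at 6, 18, 24 and 48 h. All arrays come from the 1 line, grown in the same medium to less than full density. AZD1152 is selective for Aurora B, and SNS-314 inhibits all Aurora kinases. The doses of the inhibitors differ. No untreated cells of 12 h were analysed here, so inhibitor and time in culture cannot be told apart in any comparison with 0 h. Whether replicates were separate cultures is not stated in the labels, so p-values measure only the spread between these samples.

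Aurora A works at the centrosomes and the spindle, where TPX2 activates it. Aurora B, as part of the chromosomal passenger complex, corrects the attachment of chromosomes to the spindle and acts in the division of the cytoplasm. Cells whose Aurora B is blocked fail to divide and can re-enter the cycle with a doubled genome. NF-κB, a family of inflammatory transcription factors, is often active in melanoma cells and drives the secretion of chemokines.

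Levels are normalized intensities on the log2 scale. Differences between groups are on the same scale, each ± its SE, from a limma fit to 8917 genes, and p-values carry a Benjamini-Hochberg adjustment per comparison. A gene was called at an adjusted p under 0.05. On the 12 arrays the median signal ran from 237.8 to 338.6, with 20.5% to 28.7% of probes above background, and replicates correlated across genes with r from 0.974 to 0.993. The median SE was 0.098 for both inhibitors together and 0.113 for 1 inhibitor, and precision is limited by the number of arrays. The arrays lie on 4 chips with 1 replicate of each inhibitor per chip, and the controls lie on chips 2 and 3, with 2 arrays each. Background was higher on chip 3 than on the others. Of the 12 fixed melanocyte markers 4 were measured (SOX10, S100A1, MIA and CSPG4) and lay above background on all 12 arrays, while the pigment genes TYR, TYRP1, DCT, PMEL and MLANA and their regulator MITF were not among the measured genes. Of the markers of other cell types, 3 of 9 for fibroblasts (PDGFRA, PDGFRB and FAP), 1 of 7 for leukocytes (CD68), 1 of 6 for keratinocytes (KRT10) and 0 of 5 for endothelium were measured. COL1A1, COL1A2, COL3A1, PTPRC and KRT14 were not among the measured genes.

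With both inhibitors together, 664 of 8917 genes were called (7.45%). Of these 238 were higher (2.67%) and 426 lower (4.78%) than at 0 h. Only 476 of the 664 were above background on all 12 arrays. No control was above background for 41 and no 12 h array for 21, with 5 genes in both counts. In bulk samples like these, fewer cells of a type and less RNA per cell cannot be told apart. Most changes were small. The median size of a called change was 0.37, 516 called changes were under 0.5, and 21 genes changed at least 2-fold, of which 18 were lower. The count was 423 without control replicate 3 and 422 without control replicate 4. With chip as a fixed block it was 788, now with 363 higher and 425 lower, of which 566 were also called without the block. Within the chips that hold controls, 662 of the 664 genes changed in the same direction on both, against 56.8% of all genes. The genes were called on these same arrays among others, so such agreement follows from the selection and is not independent support. Within chip 2, 200 genes were called and within chip 3, with 2 arrays against 2 on each, 38.

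The falls of more than 4-fold all belonged to genes that NF-κB switches on. Of the 30 measured members of that list 26 were lower and none was higher, beside 4.78% of all genes lower, and the median change was -0.83, against -0.01 over all genes. The lower genes cover chemokines (CCL2, CXCL1, CCL20, CXCL8), cytokines (IL6, IL1B, LIF), an adhesion molecule (ICAM1) and the inhibitors that NF-κB induces against itself (NFKBIA, NFKBIZ). The 4 other members, named here because they complete the list, were TRAF1 (-0.20), CCL5 (-0.09), CFLAR (-0.08) and TNFAIP8 (-0.02). The list's median level on an array, relative to the control mean, lay between -0.07 and 0.05 on the controls and between -0.998 and -0.70 on the 8 inhibitor arrays. In 24 of the 30 genes the inhibitor and control arrays did not overlap, a state that 5.32% of all genes showed in either direction. Within chips 2 and 3 the medians were -0.79 and -0.83, with 21 and 15 members lower, and without the 4 arrays of chip 3 it was 21. By inhibitor, 23 members were lower with AZD1152 and 24 with SNS-314, beside 2.83% and 3.63% of all genes, and the medians were -0.87 and -0.85.

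Promoter sequences from RefSeq (GRCh38.p14) were matched for 24 of the 30 genes. A κB motif of 10 letters, read on both strands over the 250 bases before the start, was found in 8 of these 24, against 1.73% of all 27305 promoters and 2.02% of measured genes. The 120 bases before the start are shown for the named genes whose match lies there, since they show the same motif in 2 chemokine genes, a cytokine gene and the gene of the NF-κB inhibitor. Capitals mark the match, on the forward strand in CXCL1 and IL6 and on the reverse strand in CCL20 and NFKBIA. A match of letters does not show that the factor binds.
CXCL1 (chr4:73869273-73869392, plus strand): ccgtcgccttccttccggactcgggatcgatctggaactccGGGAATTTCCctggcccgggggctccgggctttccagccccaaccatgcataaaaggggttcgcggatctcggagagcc
IL6 (chr7:22727080-22727199, plus strand): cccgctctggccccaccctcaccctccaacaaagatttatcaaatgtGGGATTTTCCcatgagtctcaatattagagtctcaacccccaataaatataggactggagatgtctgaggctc
CCL20 (chr2:227813722-227813841, plus strand): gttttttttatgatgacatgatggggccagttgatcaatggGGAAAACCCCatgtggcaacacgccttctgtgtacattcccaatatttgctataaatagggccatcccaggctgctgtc
NFKBIA (chr14:35404750-35404869, minus strand): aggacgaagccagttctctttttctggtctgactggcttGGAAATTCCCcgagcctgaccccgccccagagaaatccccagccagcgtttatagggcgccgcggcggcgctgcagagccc

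CCL2, which attracts monocytes, had levels of 13.94, 14.01, 13.92 and 14.01 on the controls, 11.29, 11.36, 11.11 and 11.07 on the AZD1152 arrays, and 11.21, 11.23, 11.23 and 11.70 on the SNS-314 arrays. Every inhibitor array lay more than 2 units below every control. The pooled change was -2.70 ± 0.13 (adjusted p = 6.8e-20, limma, n = 8 and 4), with -2.76 for AZD1152 and -2.63 for SNS-314. CXCL1, whose product attracts neutrophils, had levels of 11.05, 10.96, 10.74 and 11.30 on the controls, 8.64, 8.03, 8.70 and 9.01 on the AZD1152 arrays, and 8.44, 8.20, 8.59 and 8.19 on the SNS-314 arrays. Its change of -2.54 ± 0.26 carries the widest error of these genes, and 3 of 4 arrays of each inhibitor were above background. CXCL8, the gene of interleukin-8, fell by 2.13 ± 0.15 from 14.86, 14.90, 14.85 and 14.96 to values between 12.44 and 13.10. CCL20, an attractant of dendritic cells and lymphocytes, fell by 2.19 ± 0.15 from between 12.08 and 12.39 to between 9.88 and 10.19.

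IL6, an inflammatory cytokine, had levels of 12.15, 12.13, 12.13 and 12.21 on the controls, 10.01, 9.88, 9.89 and 9.94 on the AZD1152 arrays, and 9.72, 10.08, 9.90 and 9.81 on the SNS-314 arrays. The groups were tight and far apart, and the change was -2.25 ± 0.11 (adjusted p = 4.1e-20, limma, n = 8 and 4). IL1B, the gene of interleukin-1β, fell by 1.24 ± 0.11 but kept levels between 13.73 and 14.30 after 12 h. LIF, a cytokine of the interleukin-6 family, fell by 0.99 ± 0.11 and IER3, a survival gene of the same list, by 0.60 ± 0.09.

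ICAM1, a receptor for leukocyte integrins, had levels of 11.21, 11.05, 11.63 and 11.29 on the controls, 9.47, 9.05, 9.48 and 9.29 on the AZD1152 arrays, and 8.95, 9.01, 9.23 and 9.28 on the SNS-314 arrays. Its change was -2.08 ± 0.14 (adjusted p = 5.0e-15). NFKBIA, whose product holds NF-κB in the cytoplasm, had levels of 12.31, 12.54, 12.44 and 12.77 on the controls, 10.79, 11.10, 11.27 and 11.10 on the AZD1152 arrays, and 11.07, 11.20, 10.91 and 10.94 on the SNS-314 arrays. This is a fall of 1.46 ± 0.12 with no overlap. NFKBIZ, a nuclear cofactor of NF-κB, fell by 1.73 ± 0.11. Outside the list, ZC3H12A, whose enzyme degrades inflammatory mRNAs, was above background on 4 controls, on 0 arrays with AZD1152 and on 1 with SNS-314, and with AZD1152 it was at least 2.16-fold lower (adjusted p = 1.3e-12). CEBPD, an inflammatory transcription factor, fell by 1.44 ± 0.08, and IRAK2, a kinase of the interleukin-1 receptor pathway, by 1.42 ± 0.11.

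**Figure D1:**
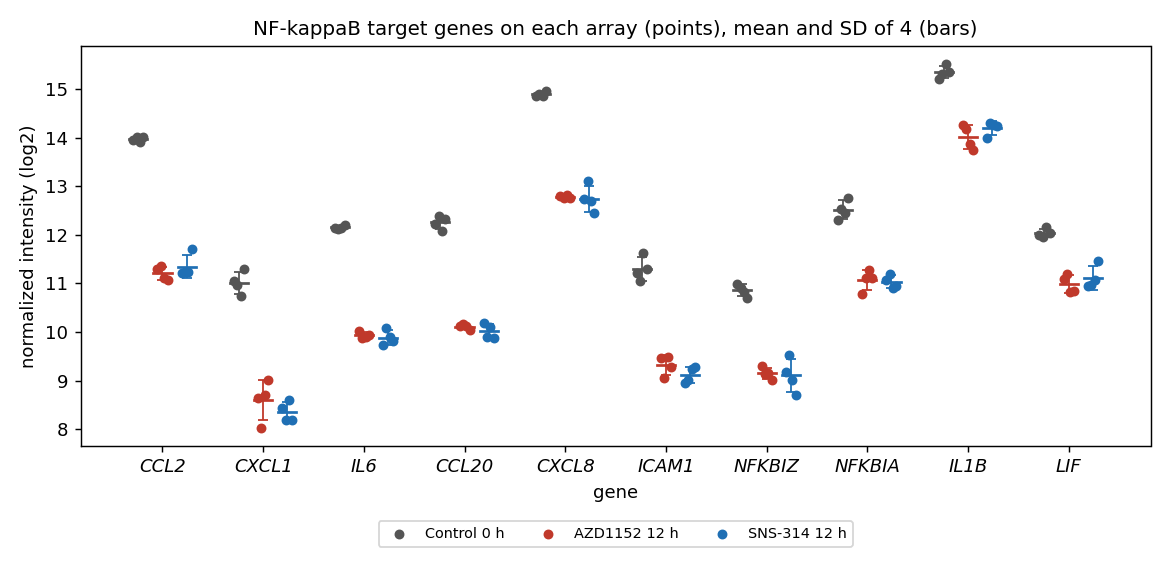
Normalized intensity (log2) of 10 NF-κB target genes on each of the 12 arrays; points are arrays, horizontal bars group means and error bars SD of 4. In each gene the 8 inhibitor arrays lie below the 4 controls, with CCL2 going from 13.97 to means of 11.21 and 11.34.

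Levels of the NF-κB genes at 12 h were also set against the sampled times before and after. These comparisons share the 12 h arrays with the one above. Against 6 h (6 arrays, 3 per inhibitor), 8 of 30 were higher at 12 h and 1 lower, beside 3.73% and 6.26% of all genes, and against 18 h (8 arrays) 0 were higher and 8 lower, beside 4.54% and 5.1%. CCL2 was higher at 12 h than at 6 h by 0.72 and lower than at 18 h by a change of -0.35 (adjusted p = 1.6e-05 and 0.030). By inhibitor its mean levels at 12 h and 18 h were 11.21 and 11.29 with AZD1152 but 11.34 and 11.96 with SNS-314. IL6 moved otherwise between 6 h and 12 h, with a further fall of 0.62 (adjusted p = 5.7e-06), and it differed from 18 h by -0.21 (adjusted p = 0.12). This pooled value averages opposite directions, since the means of IL6 at 12 h and 18 h were 9.93 and 9.75 for AZD1152 but 9.88 and 10.48 for SNS-314. The list medians relative to the control mean went from -0.81 at 12 h to -0.85 at 18 h with AZD1152 and from -0.79 to -0.59 with SNS-314. With AZD1152 the arrays ran from -0.83 to -0.73 at 12 h and from -0.99 to -0.61 at 18 h. The later range spans the earlier one, so no direction is read from it. The difference between the inhibitors in these moves was not tested.

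Some other genes of inflammation and secretion were lower as well. Of 34 measured genes that interferons induce against viruses, 5 were lower and none higher, beside 4.78% and 2.67% of all genes. The median was -0.16, and 2 were lower without the arrays of chip 3. MX1, a GTPase that blocks influenza and other viruses, had levels of 11.89, 11.92, 12.03 and 11.89 on the controls, 11.25, 11.26, 11.18 and 11.07 on the AZD1152 arrays, and 11.25, 11.42, 10.98 and 10.67 on the SNS-314 arrays, a fall of 0.80 ± 0.11 without overlap. IFIH1, which detects double-stranded viral RNA, fell by 0.50 ± 0.10 and ISG20, an exonuclease, by 0.40 ± 0.10. The other lower members, ISG15 and IRF9, are named to complete the count. Of 27 measured factors that senescent cells secrete, 11 were lower and 1 higher, beside 4.78% and 2.67% of all genes. The median was -0.23. Of these 27 genes 9 are also in the NF-κB list, and all 9 were lower, so most of the 11 belong to both lists. The factor that rose was GDF15.

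DNA replication genes, which the E2F factors switch on ahead of S phase, were the second group with many lower members. Of 51 measured, 20 were lower and 0 higher, beside 4.78% and 2.67% of all genes. The median was -0.26, and the sign was negative in 45. The list's median level lay between -0.38 and -0.19 on the inhibitor arrays and between -0.02 and 0.01 on the controls. Within chips 2 and 3 it was -0.22 and -0.23, with 7 and 0 members called. Without the 4 arrays of chip 3 the count was 10 lower. E2F2, an activating E2F factor, had levels of 11.17, 11.21, 11.43 and 11.50 on the controls, 10.51, 10.80, 10.84 and 10.55 on the AZD1152 arrays, and 10.63, 10.65, 10.44 and 10.15 on the SNS-314 arrays. Its fall of 0.76 ± 0.10 (adjusted p = 7.6e-07, limma, n = 8 and 4) left the groups without overlap. CHAF1A, a subunit of the chromatin assembly factor that loads histones on new DNA, fell by 0.63 ± 0.11 and GINS3, a subunit of the replicative helicase, by 0.58 ± 0.10. E2F1 did not pass the background filter with its 1 probe.

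Against 6 h, 25 of the 51 replication genes were lower at 12 h (median -0.27), beside 6.26% of all genes. Against 18 h, 36 were higher at 12 h (median 0.35), beside 4.54%. E2F2 was lower at 12 h than at 6 h by a change of -0.84 (adjusted p = 2.4e-09) and higher than at 18 h by 0.49 (adjusted p = 7.9e-05). The mean level of E2F2 was 11.33 at 0 h. With AZD1152 it was 11.39 at 6 h, 10.68 at 12 h and 10.12 at 18 h, and the SNS-314 means at these times were 11.43, 10.47 and 10.05. The E2F motif TTTNNCGC was present in 16 of the 43 list members with a promoter sequence, against 5.93% of all promoters and 9.51% of measured genes. Among the 17 of these members called against 0 h, 6 held it, 35.3% beside 37.2% of the 43. The promoter of E2F2 is shown because it holds 3 matches, of which the last 2, on opposite strands, share letters.
E2F2 (chr1:23531234-23531353, minus strand): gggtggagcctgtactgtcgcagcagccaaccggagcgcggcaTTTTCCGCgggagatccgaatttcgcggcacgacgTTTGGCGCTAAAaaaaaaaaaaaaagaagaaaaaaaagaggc

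Mitotic genes shifted the other way in the same samples, by less. The lists for entry into mitosis, for spindle and kinetochore, and for anaphase and cytokinesis hold 87 measured genes. Of these 11 were higher and 3 lower, beside 2.67% and 4.78% of all genes. The median was 0.19 and the sign was positive in 72 of 87, beside 4278 of 8917 genes overall. The median level of the 87 genes lay between 0.04 and 0.23 on the inhibitor arrays and between -0.04 and 0.06 on the controls, so the lowest inhibitor array overlapped the controls. By list, 3 of 22 entry genes, 3 of 44 spindle and kinetochore genes and 5 of 21 anaphase and cytokinesis genes were higher. With chip as a fixed block these counts were 5, 10 and 8. The spindle and kinetochore median of 0.21 was 0.11 within chip 2 and 0.09 within chip 3, and without the arrays of chip 3 the 3 lists held 1, 1 and 3 higher members.

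NEK2, a kinase that separates the centrosomes, had levels of 10.68, 10.54, 10.51 and 10.47 on the controls, 11.02, 11.30, 11.59 and 11.78 on the AZD1152 arrays, and 11.29, 11.04, 11.37 and 11.64 on the SNS-314 arrays. All 8 inhibitor arrays were above all controls, and the rise was 0.83 ± 0.17 (adjusted p = 8.2e-04), with 0.55 within chip 2 and 0.68 within chip 3. KIF20A, a motor of the central spindle, had levels of 11.79, 11.89, 11.86 and 11.88 on the controls, 12.41, 12.46, 12.35 and 12.36 on the AZD1152 arrays, and 12.49, 12.47, 12.31 and 12.48 on the SNS-314 arrays. It rose by 0.56 ± 0.09 (adjusted p = 4.4e-05) with little spread in any group. DEPDC1 rose by 0.61 ± 0.13 (0.52 and 0.35 within chips 2 and 3), with control replicate 1 at 10.37 above SNS-314 replicate 2 at 10.10, and PTTG1, the gene of securin, rose by 0.39 ± 0.08 without overlap. KNSTRN, a kinetochore-associated protein, rose by 0.37 ± 0.09. The 3 members that fell are all in the list for entry into mitosis. Their count, 3 of 87, is not above the 4.78% of all genes that were lower. MASTL, the Greatwall kinase, which keeps mitotic phosphorylations in place, fell by 0.43 ± 0.08 without overlap. The others, LIN54 of the DREAM complex and PKMYT1, which inhibits CDK1, are named to complete the count.

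HMMR, a spindle protein that binds hyaluronan outside the cell, had levels of 12.52, 12.35, 12.54 and 12.17 on the controls, 12.85, 12.81, 12.93 and 12.97 on the AZD1152 arrays, and 12.92, 12.39, 12.89 and 12.98 on the SNS-314 arrays. SNS-314 replicate 2 lay among the controls, and within chip 3, which holds it, the change was 0.24. HMMR is 1 of 3 genes (0.0336%) that were higher at 12 h than at 0, 6 and 18 h, by 0.45 ± 0.11, 0.44 and 0.45. The others were DEPDC1B, a mitotic gene (0.37, 0.36 and 0.38), and FAM72B (0.33, 0.26 and 0.30). FAM72B has near-identical copies in the genome, so its probe may read several. The call of DEPDC1B against 0 h was lost without control replicate 3 (0.34, adjusted p = 0.074) and without control replicate 4 (0.34, adjusted p = 0.081), and that of FAM72B without control replicate 4 (0.29, adjusted p = 0.088). With the mean over probes in place of the brightest one, HMMR had 0.32 (adjusted p = 0.055) and DEPDC1B 0.20 (adjusted p = 0.11). Of the 87 mitotic genes, 40 were higher at 12 h than at 18 h and 1 lower, beside 4.54% and 5.1% of all genes. The median was 0.27. Against 6 h, 11 were higher at 12 h and 3 lower, beside 3.73% and 6.26%, with a median of 0.11.

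The cell cycle genes homology region, a promoter element of genes expressed in G2 and mitosis, was searched as TTTGAA on both strands. It was present in 30 of the 75 mitotic genes with a promoter sequence, against 13.6% of all promoters and 8.37% of measured genes. Among the 13 of these genes called against 0 h in either direction, 5 held it, 38.5% beside 40% of the 75. They were HMMR, DEPDC1 and PLK1, which were higher, and MASTL and LIN54, which were lower. PLK1 is named to complete the count. Of the genes named by rule, HMMR and DEPDC1 hold it close to the start, with 2 adjoining copies in HMMR.
HMMR (chr5:163460512-163460631, plus strand): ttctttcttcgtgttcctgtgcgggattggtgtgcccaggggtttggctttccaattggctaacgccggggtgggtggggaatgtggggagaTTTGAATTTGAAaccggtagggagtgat
DEPDC1 (chr1:68497083-68497202, minus strand): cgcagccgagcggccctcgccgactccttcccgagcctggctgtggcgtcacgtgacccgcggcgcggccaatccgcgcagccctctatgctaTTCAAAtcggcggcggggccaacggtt

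**Figure D2:**
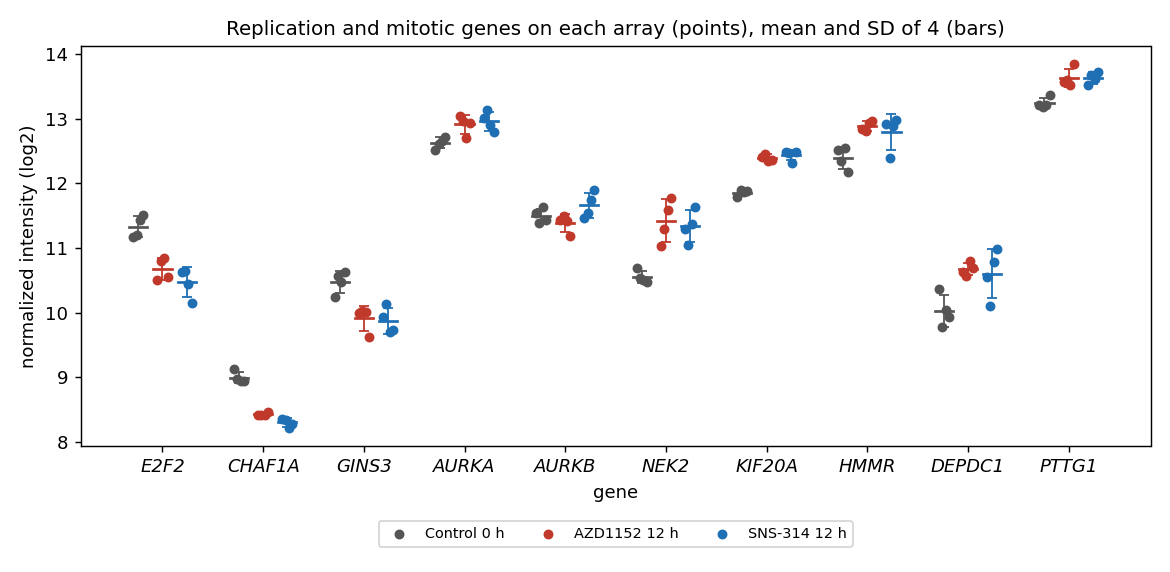
Normalized intensity (log2) of 3 replication genes and 7 mitotic or Aurora kinase genes on each of the 12 arrays; points are arrays, horizontal bars group means and error bars SD of 4. E2F2, CHAF1A and GINS3 lie lower with both inhibitors, NEK2, KIF20A and PTTG1 higher, and the AURKB groups overlap.

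Of the mRNAs of the inhibitors' targets AURKA and AURKB were measured, and AURKC did not pass the background filter with its 3 probes. AURKA had levels of 12.52, 12.61, 12.66 and 12.72 on the controls, 13.04, 12.96, 12.71 and 12.93 on the AZD1152 arrays, and 13.01, 13.13, 12.90 and 12.79 on the SNS-314 arrays. The pooled change was 0.31 ± 0.09 (adjusted p = 0.028, limma, n = 8 and 4), with 1 inhibitor array below the highest control. That call was lost without control replicate 1 (0.27, adjusted p = 0.10), control replicate 2 (0.30, adjusted p = 0.079), control replicate 3 (0.32, adjusted p = 0.061), AZD1152 replicate 1 (0.29, adjusted p = 0.053) or SNS-314 replicate 2 (0.28, adjusted p = 0.0504). AURKB had levels of 11.54, 11.38, 11.63 and 11.43 on the controls, 11.44, 11.50, 11.41 and 11.18 on the AZD1152 arrays, and 11.47, 11.54, 11.73 and 11.90 on the SNS-314 arrays. The groups overlapped and the change was 0.03 ± 0.12 (adjusted p = 0.93). TPX2, the activator of Aurora A, had a change of 0.31 ± 0.10 (adjusted p = 0.039), and this call was lost without any 1 of 9 arrays, with values of 0.27 to 0.34. The fixed proliferation genes did not pass the test, with 0.16 ± 0.11 for MKI67, 0.30 ± 0.11 for CCNB1 (cyclin B1) and -0.06 ± 0.11 for CCND1 (cyclin D1), at adjusted p = 0.46, 0.10 and 0.82. For CCNB1, the inhibitor arrays (11.07 to 11.45) lay above the controls (10.95 to 10.99), and 2 of 28 alternatives gave a call.

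Genes induced by p53, the tumour suppressor that answers DNA damage and failed divisions, were higher in part. Of 32 measured, 9 were higher and 2 lower, beside 2.67% and 4.78% of all genes, with a median of 0.21. Median levels lay between 0.13 and 0.25 on the inhibitor arrays and between -0.05 and 0.03 on the controls, and within chips 2 and 3 the median change was 0.19 and 0.24. Without the 4 arrays of chip 3, 2 members were higher and 1 lower. With AZD1152 4 were higher and 3 lower, beside 1.45% and 2.83% of all genes, while SNS-314 gave 9 higher and 1 lower, beside 1.94% and 3.63%. GDF15, a stress-induced cytokine, had levels of 9.85, 9.97, 9.83 and 9.99 on the controls, 10.96, 10.92, 10.56 and 10.37 on the AZD1152 arrays, and 10.86, 10.97, 10.39 and 10.02 on the SNS-314 arrays. Its rise was 0.72 ± 0.13 (adjusted p = 2.5e-04) over all chips, and 1.00 within chip 2 and 1.03 within chip 3. Replicates 3 and 4, the lowest of each inhibitor, lie on the chips that hold no control, and the part of the chip in this was not tested. RRM2B, a p53-induced subunit of ribonucleotide reductase, rose by 0.52 ± 0.12, with 0.40 and 0.33 within chips 2 and 3. NINJ1, which ruptures the membrane of dying cells, fell by 0.52 ± 0.11.

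CDKN1A, the gene of the cell cycle inhibitor p21, had levels of 13.84, 13.92, 13.72 and 14.07 on the controls, 14.30, 14.14, 14.14 and 14.09 on the AZD1152 arrays, and 13.997, 14.20, 14.32 and 14.45 on the SNS-314 arrays. Its change was 0.32 ± 0.08 (adjusted p = 0.0098), and SNS-314 replicate 1 lay below the highest control. Without control replicate 3 it was 0.26 (adjusted p = 0.081), and within chips 2 and 3 it was 0.27 and 0.28. Against 18 h the p53 list had a median of -0.16 with 1 member higher and 2 lower at 12 h, near the 4.54% and 5.1% of all genes, and against 6 h a median of 0.08 with 4 higher and 1 lower, beside 3.73% and 6.26%.

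**Figure D3:**
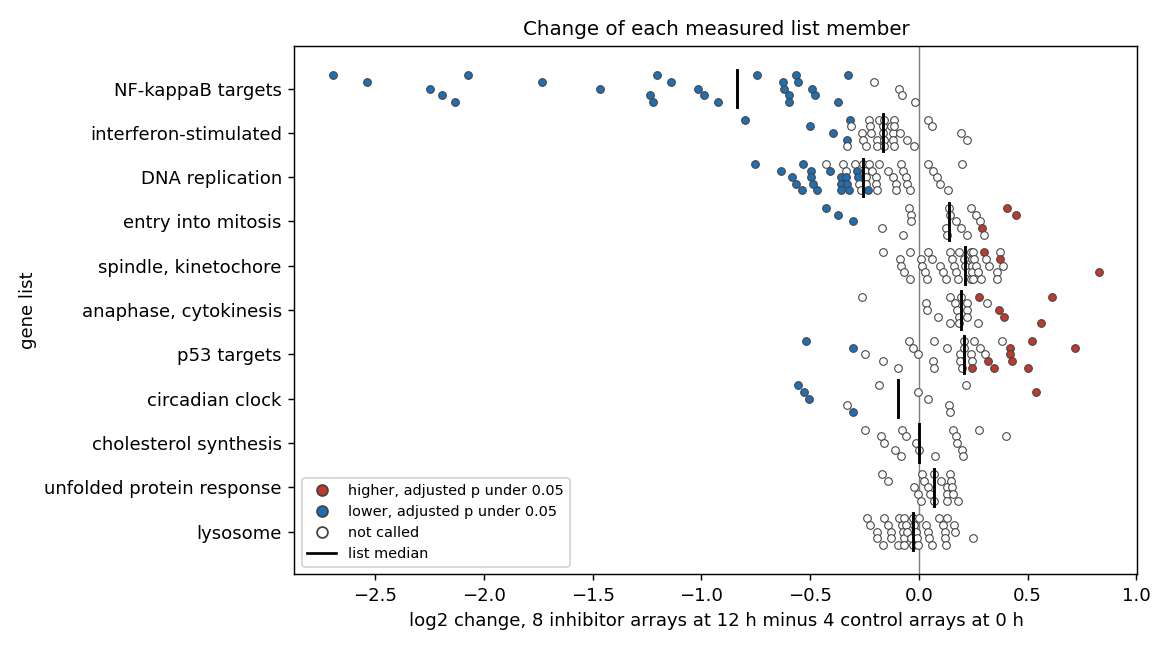
Pooled log2 change (12 h inhibitor minus 0 h control) of each measured member of 11 gene lists; filled points were called at an adjusted p under 0.05, open points were not, and vertical bars are list medians. The NF-κB list has its median at -0.83, replication at -0.26 and the spindle and kinetochore list at 0.21, while cholesterol synthesis, unfolded protein response and lysosome have 0 called members.

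**Figure D4:**
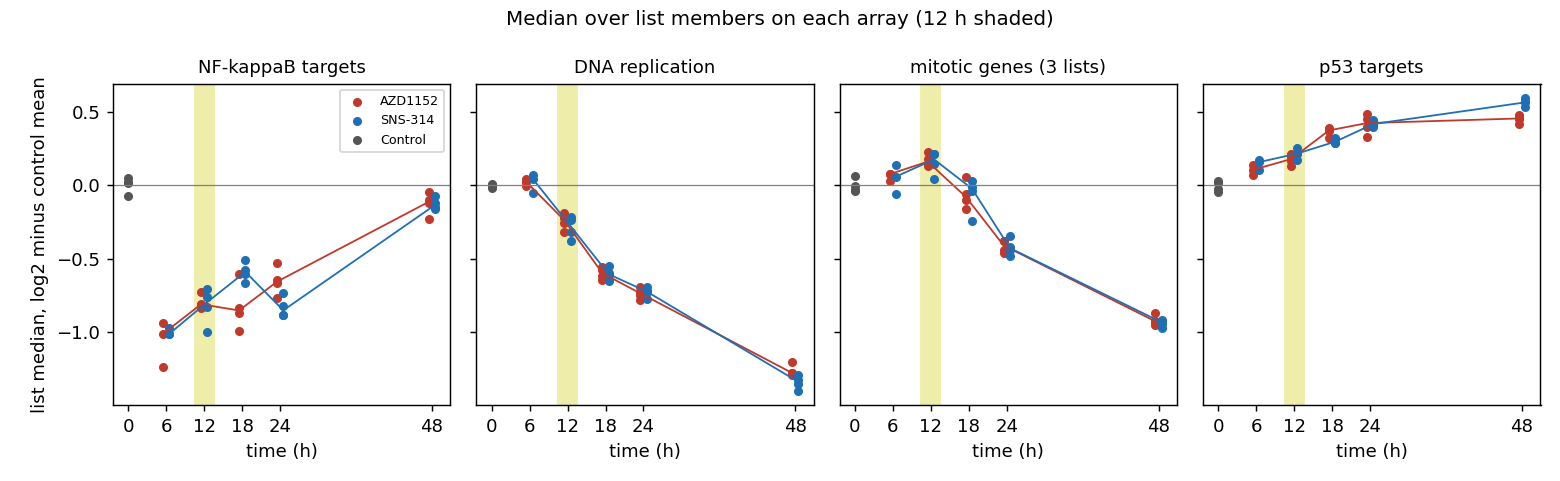
Median level of the members of 4 lists on each array, as log2 minus the control mean, against time in h for AZD1152, SNS-314 and the controls; lines join the medians of the arrays at each time, and 12 h is shaded. The mitotic lists lie above 0 at 12 h and below it from 24 h, replication genes fall between 6 and 12 h, and p53 targets lie between 0.13 and 0.25 on the 12 h arrays.

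Genes of other functions rose most. TENT5C, a poly(A) polymerase that stabilizes mRNAs of secreted proteins, had levels of 10.49, 10.37, 10.38 and 10.66 on the controls, 11.70, 11.67, 11.59 and 11.66 on the AZD1152 arrays, and 11.56, 11.84, 11.58 and 11.41 on the SNS-314 arrays. It had the largest called rise, 1.15 ± 0.09 (adjusted p = 6.7e-14, limma, n = 8 and 4), and was higher than at 6 h by 0.80 (adjusted p = 1.5e-10), with 0.03 between 12 h and 18 h. TAGLN, a smooth muscle protein that binds actin, had levels of 8.92, 8.92, 9.11 and 9.45 on the controls, 10.46, 10.39, 9.91 and 10.07 on the AZD1152 arrays, and 10.22, 10.27, 9.87 and 9.76 on the SNS-314 arrays. All inhibitor arrays lay above the controls, with a rise of 1.02 ± 0.13, and 1.42 and 1.05 within chips 2 and 3. LYPD1, a modulator of acetylcholine receptors in neurons, rose by 1.01 ± 0.14, with 1 of 4 control arrays above background. Its change was 0.68 within chip 2 and 0.56 with the mean over probes. TMEFF2, a transmembrane protein with follistatin modules, rose by 0.73 ± 0.11 with 1 control above background, and RGS16, which shortens G protein signals, by 0.66 ± 0.10 with 2. TRIL, an accessory protein of Toll-like receptors, rose by 0.68 ± 0.10 from between 11.52 and 11.72 to between 12.01 and 12.61.

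In 4 further genes with large rises no control array was above background, so they passed the filter through inhibitor arrays alone. No p-value is given for them, since their control values lie below background. The bounds set the mean of the 8 inhibitor arrays, some of them below background, against the mean threshold of the controls. AOX1, an aldehyde oxidase, was above background on 6 of 8 inhibitor arrays and at least 1.07-fold higher. CHST2, a sulfotransferase that modifies cell surface sugars, was above background on 6 of 8 and at least 1.13-fold higher, but within chip 2 its change was 0.17. NPPC, the gene of C-type natriuretic peptide, was above background on 5 of 8 inhibitor arrays and CTLA4, an immune checkpoint receptor, on 4 of 8, and no fold is given for them because their bound was below 1.

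The circadian clock list moved in part. Of 12 measured genes 1 was higher and 4 were lower, beside 2.67% and 4.78% of all genes. BMAL1, which drives the clock's positive arm, had levels of 8.92, 9.08, 9.11 and 9.20 on the controls, 9.82, 9.59, 9.61 and 9.21 on the AZD1152 arrays, and 9.88, 9.76, 9.64 and 9.44 on the SNS-314 arrays. It rose by 0.54 ± 0.12 (adjusted p = 0.0020), with 0.84 within chip 2 and 0.52 within chip 3. PER2, a repressor that acts against BMAL1, had levels of 10.23, 10.53, 10.29 and 10.61 on the controls, 10.16, 10.02, 9.93 and 9.96 on the AZD1152 arrays, and 10.08, 10.17, 9.57 and 9.20 on the SNS-314 arrays, and a change of -0.53 ± 0.15 (adjusted p = 0.018). Without control replicate 2 it was -0.49 (adjusted p = 0.072) and without control replicate 4 it was -0.46 (adjusted p = 0.097), and within chips 2 and 3 it was -0.26 and -0.36. TEF, an output factor of the clock, fell by 0.56 ± 0.11, with 2 controls, 0 AZD1152 arrays and 2 SNS-314 arrays above background. The other lower members, PER3 and BHLHE41, are named to complete the count. Hours of sampling differ between the groups by design, and the part of the time of day was not tested.

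Of 12 measured melanocyte and neural crest genes 3 were higher and 1 lower, beside 2.67% and 4.78% of all genes. The list includes receptors. ERBB3, a neuregulin receptor, had levels of between 8.95 and 9.005 on the controls and between 9.29 and 9.74 on the inhibitor arrays, a rise of 0.56 ± 0.10, with 0.38 within chip 2 and 0.29 with the mean over probes. AXL, a receptor tyrosine kinase, and EDNRB, an endothelin receptor named to complete the count, were the other higher members. The change of AXL was 0.32 ± 0.09 (adjusted p = 0.018), and 0.20 within chip 2, and its call was lost without control replicate 2 (0.32, adjusted p = 0.054), 3 (0.32, adjusted p = 0.055) or 4 (0.29, adjusted p = 0.094). EGFR, the receptor of epidermal growth factor, fell by 0.58 ± 0.10 from between 9.31 and 9.59 to between 8.64 and 9.13, with -0.63 within chip 2 and -0.29 within chip 3. Of the fibroblast markers, PDGFRA rose by 0.45 ± 0.09 and PDGFRB fell by 0.44 ± 0.08, both receptors of platelet-derived growth factors. That list's summed intensity over its 3 measured members was 4639 to 4863 on the controls, 4414 to 5011 with AZD1152 and 4649 to 5495 with SNS-314.

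Of the YAP targets and their regulators, 3 of 17 were higher and 1 lower, beside 2.67% and 4.78% of all genes, which hold for the lists that follow too. WWC1, the gene of KIBRA, an upstream part of the Hippo pathway, fell by 1.05 ± 0.11 from between 9.34 and 9.50 to between 8.06 and 8.78, with 2 AZD1152 arrays and 1 SNS-314 array above background. PTPN14, a phosphatase that binds YAP, rose by 0.37 ± 0.08. The metallothioneins and heat shock genes held 1 higher and 2 lower members of 19, the second lower one being MT1E. MT1X, a metal-binding protein, fell by 0.55 ± 0.08 and HSPA4L, a chaperone cofactor, rose by 0.62 ± 0.12. Of 20 immediate early genes 1 was higher and 2 were lower. Among them MAFF, a small MAF factor, fell by 0.67 ± 0.10 (-0.39 with the mean over probes), with 3 controls and 3 of 8 inhibitor arrays above background. Of 39 ribosome biogenesis genes 4 were lower and none higher, among them GRWD1 (-0.35 ± 0.09), a histone-binding assembly factor, and BOP1 (-0.34 ± 0.09), a factor of the large subunit whose change within chip 2 was -0.08. Of 30 glycolysis and hypoxia genes SLC2A1, the glucose transporter GLUT1, rose by 0.39 ± 0.10 and PFKFB4, a regulator of glycolysis, by 0.40 ± 0.09 (0.61 within chip 3), while EGLN1, the oxygen-sensing hydroxylase, fell by 0.41 ± 0.08. No member was called among 17 cholesterol synthesis genes, 20 genes of the unfolded protein response, 39 lysosome genes, 13 tubulins and 7 histone genes, with limma at an adjusted p under 0.05.

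A set of 19 genes (0.213%) was lower at 12 h than at 0, 6 and 18 h. MAP2K3, a kinase that activates p38, fell by 0.70 ± 0.10 against 0 h and differed from 6 h by -0.49 and from 18 h by -0.26, while within chip 2 its change against 0 h was -0.43. ZBTB46, a zinc finger factor known from dendritic cells, was above background on 2 of 4 controls and on 0 of 8 inhibitor arrays, at least 1.11-fold lower (adjusted p = 9.0e-09). SAMD4A, an RNA-binding repressor of translation, fell by 0.59 ± 0.09 against 0 h and differed from 6 h and 18 h by -0.31 and -0.37. NEK6, a mitotic kinase, had changes of -0.35 ± 0.09, -0.32 and -0.46, and PDGFRB of -0.44 ± 0.08, -0.57 and -0.25. GBP2, an interferon-induced GTPase, was above background on 1 control and on no inhibitor array, and no fold is given.

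The inhibitors were set against each other at 12 h, at different doses. Against the shared controls AZD1152 gave 381 called genes (4.27%), 129 of them higher and 252 lower. SNS-314 gave 497 (5.57%), of which 173 were higher and 324 lower. The AZD1152 count was 252 without control replicate 3, and 250 and 236 without its own replicates 3 and 4. The SNS-314 count was 325 without control replicate 4, and 330 and 293 without its own replicates 3 and 4. Since the inhibitor replicates pair by number and chip, the fit with the replicate as a block is given too, with 577 and 793 genes. Between the inhibitors 0 of 8917 genes were called by limma, with a lowest adjusted p of 0.75, and 577 (6.47%) had an unadjusted p under 0.05. The 95% interval of the difference lay within ±1 for 8911 genes and within ±0.5 for 8035, and among the 664 called genes within ±0.5 for 626.

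For CCL2 the difference, AZD1152 minus SNS-314, was -0.14 (95% interval -0.44 to 0.17), for IL6 0.06 (-0.19 to 0.30) and for CXCL1 0.24 (-0.37 to 0.85). For E2F2 it was 0.21 (-0.03 to 0.44), for NEK2 0.09 (-0.30 to 0.48) and for GDF15 0.14 (-0.17 to 0.46). AURKB had -0.28 (-0.56 to 0.01) and MKI67 -0.28 (-0.54 to -0.02). These intervals are not adjusted for the number of genes, and a difference of the size of the replicate spread would not have been detected.

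**Figure D5:**
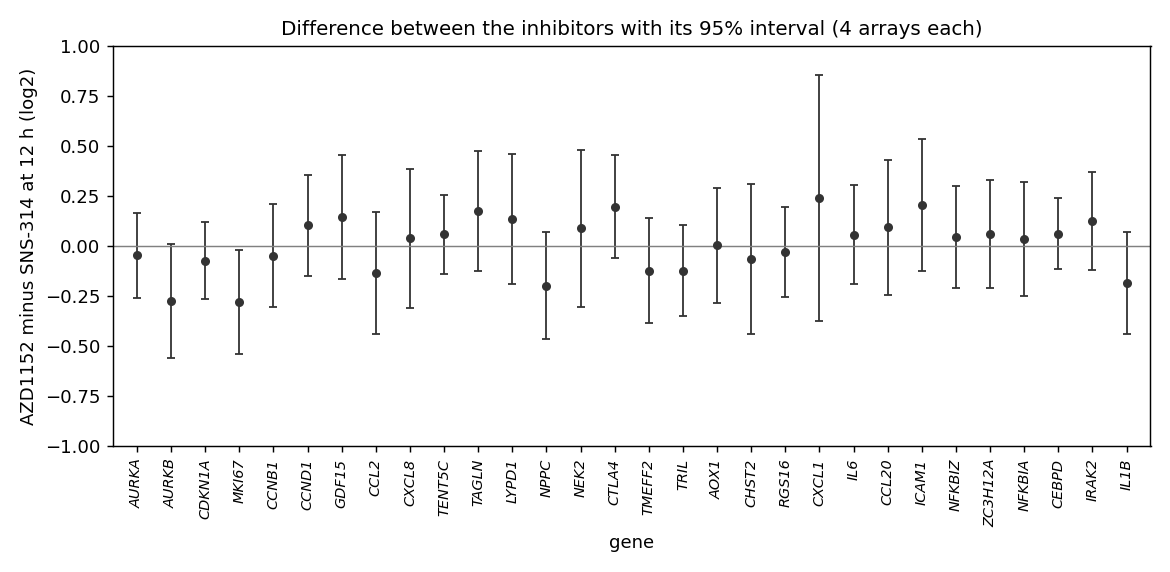
Difference AZD1152 minus SNS-314 at 12 h (log2, 4 arrays each, points) with its 95% interval (bars) for the fixed genes and the 12 largest rises and falls. All differences lie within ±0.3, and only the interval of MKI67 excludes 0.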

How the data were processed

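Total RNA was labelled with biotin and hybridised to Illumina HT-12 arrays, per the labels. The deposited non-normalized table holds the intensity of 47312 probes on 42 arrays with no background subtracted. The authors' other table holds log2 values with a median of 8.15 on every array, whose making is not given in the sources used here. Of 2 contradicting header lines of the intensity table the second was used, since it matched 42 of 42 columns and the first 1. Background was corrected by normexp with an offset of 50, followed by quantile normalization and log2 (limma 3.58.1, R 4.3.3). Without detection p-values, background per array was set at the 95th percentile of a distribution built from the mode and lower flank of the signal. This replaced the planned filter. Probes above it on at least 3 arrays of a group were kept (13481), and the brightest probe stood for each of 8917 genes. Of these genes 8298 passed in 1 of the 3 groups compared. Symbols (30110 probes with 1, 8 with several, 17194 with none) were updated through RefSeq of GRCh38.p14. The model held 1 mean per group over the 42 arrays, and the steps were tested on simulated data. With no array of a group above background, folds are bounds against the threshold.

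The members and the 33 gene lists were chosen with earlier results of these data known. Genes were named by rule: 10 fixed genes, the 12 largest called rises and falls, up to 3 called members of each list, up to 5 called genes per direction between inhibitors, and up to 8 genes per direction that differed from 0, 6 and 18 h. Replicate numbers paired AZD1152 with SNS-314 arrays (residual r 0.150 to 0.324, each pair on 1 chip) but not with controls (-0.171 to 0.104). Alternatives were the deposited values, other corrections, scalings and filters, the mean over probes, chip or replicate as a block, fits within chips or to 12 arrays, and leaving out arrays.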

Additional observations from a re-analysis of the deposited data

Results flagged for a closer look

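Among 282 groups of 4 arrays of the named genes, 15 held an array far from the other 3 by Dixon's ratio. Chance flags about 1 in 20 groups, or 14.1 here. With SNS-314, CCL2 was 11.70 on replicate 4 (others 11.21 to 11.23), IL1B 13.99 on replicate 1 (14.25 to 14.30), HMMR 12.39 on replicate 2 (12.89 to 12.98), KIF20A 12.31 on replicate 3 (12.47 to 12.49) and WWC1 8.78 on replicate 1 (8.06 to 8.16). Also with SNS-314, PTPN14 was 11.82 on replicate 4 (11.55 to 11.57), HSPA4L 9.40 on replicate 2 (9.65 to 9.70) and CYTH3 10.92 on replicate 4 (11.22 to 11.27). With AZD1152, CHAF1A was 8.46 on replicate 4 (8.41 on the others), GINS3 9.62 on replicate 4 (9.996 to 10.03), CALD1 13.60 on replicate 1 (13.86 to 13.90) and EGFR 8.71 on replicate 4 (8.90 to 8.94). On the controls, CCNB1 was 10.95 on replicate 2 (10.99 on the others), LYPD1 8.53 on replicate 2 (8.34 to 8.36) and CHAF1A 9.13 on replicate 1 (8.94 to 8.97). No named gene had all arrays of the inhibitors on opposite sides of the control mean.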

How the results depend on the processing

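No called gene among the 94 named genes changed direction under the alternatives run. Of all 664 called genes, 662 had the same direction within both chips 2 and 3, against 56.8% of all genes. The 664 were called on these same arrays among others, so this count follows from the selection and is not independent support. AURKB and CCND1, which were not called, took both signs (-0.01 to 0.10 and -0.14 to 0.13), as did the medians of 15 lists whose main median was at most 0.10 from 0. Of the comparisons of named genes and alternatives 2288 stayed on the same side of the threshold, 313 lost the call and 2 gained it. The pooled count of 664 was 413 with no filter, 200 within chip 2, 38 within chip 3, 225 without the 4 arrays of chip 3 (chosen after seeing the data) and 422 to 762 with 1 array left out. The AZD1152 count of 381 was 222 with no filter, 577 with the replicate block, 118 without chip 3 and 236 to 326 with 1 array left out. The SNS-314 count of 497 was 315, 793 and 189 under the same settings and 293 to 695 with 1 array left out. The count against 18 h of 860 was 501 with no filter. More genes tested or fewer arrays enter these counts by construction. For the replicate block the cause was not tested. It moved the pooled count from 664 to 956, with higher genes from 238 to 379 and lower genes from 426 to 577. The lower replication genes went from 20 to 26, the higher spindle and kinetochore genes from 3 to 9 and the lower interferon-induced genes from 5 to 8. Elsewhere, calls per direction in lists with up to 3 moved by at most 2 genes. Without the arrays of chip 3 the calls of AURKA, CDKN1A, TPX2, KNSTRN, RRM2B, AOX1, CHST2, ISG20, PTPN14, GRWD1, BOP1, PFKFB4, HSPA4L, PER2, DEPDC1B, FAM72B, GBP2 and NEK6, among others, were lost. No gene was called between the inhibitors under any alternative. Spread over few arrays and the 20.5% to 28.7% of probes above background limit what dim genes can show.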
